A study of Drosophila melanogaster with 4 samples.

Results

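This is an account of 9 genes of the intestinal brush border and of the septate junctions that seal the gut wall in female fruit flies (Drosophila melanogaster) fed with or without manganese. They were chosen by name and by no cut on a measured value, though with earlier results of these data known: mex1, Myo61F, Myo31DF, Ssk, mesh, Tsp2A, cora, dlg1 and Fas3. All 9 were found among the 13932 genes of the table, and all 9 passed the filter on low values with 7556 genes in all. The study compared the diets to find genes that respond to a lack of manganese. Flies of one group ate a chemically defined food to which no manganese was added, and flies of the other ate that food with 5 ppm manganese. Both groups were Oregon R-C, a wild-type stock, and the labels name no mutation or transgene. On each diet 10 females and 10 males laid eggs for 5 days, and newly emerged daughters then spent another 5 days on fresh food of that kind before the gut was taken. The larvae had therefore already developed on the diet, and the number of guts per library is not stated in the labels. For each diet 2 libraries were read, named B and C by the table's letters.

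An enterocyte, the absorptive cell of the fly midgut, carries a brush border of actin-filled microvilli on its gut-facing side. Class I myosins link the microvillar membrane to the actin core. Neighbouring enterocytes are joined by smooth septate junctions, the fly counterpart of the vertebrate tight junction, which limit leakage between cells. Ssk, mesh and Tsp2A encode membrane proteins that depend on each other for their place in that junction, and loss of these proteins in adult flies is known to make the gut leaky. Transcript levels say nothing direct of leakage, which was not measured in these libraries.

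The deposited values are RPKM, read numbers divided by gene length and by library size. Levels of different genes can be set side by side only as far as the length used suits each gene. Steps in the low values put the library size at 26122210 and 26311006 reads without manganese and at 24399759 and 28010953 reads with 5 ppm. The lowest read number of any of the 9 genes was about 2006, for Fas3, and the counting error of the 9 was 2.23% at most. Read numbers are approximate for 7 of them, because only Ssk and Myo31DF gave whole reads in 4 of 4 libraries with the annotation used. The labels do not tell whether libraries B and C were made from different flies, so the p-values rest on a spread that may be technical only. The no-manganese library C stood apart by RNA of the ovary: its eggshell and ovary gene list summed to 559 RPKM, 0.0982% of its total, against 1.40 RPKM in library B of that diet and 1.98 and 3.75 RPKM with 5 ppm. Values without that library are given below where they touch a result. Enterocyte products marked all 4 libraries as gut: the amylolytic enzyme gene Mal-A1 averaged 7309.5 ± 748 RPKM without manganese and 7972 ± 348 RPKM with 5 ppm (SD, n = 2 each). The RNA came from a mixed tissue, so fewer cells of a type and less RNA per cell cannot be told apart.

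None of the 9 transcripts differed between the diets by more than the test allowed, and Fas3, at 1.22 times its 5 ppm level without manganese, came nearest. In sum, the 9 genes made up 0.393% and 0.402% of total RPKM without manganese (libraries B and C), and 0.399% and 0.396% with 5 ppm. Of the 9 genes, 0 passed the limma test at an adjusted p under 0.05 over all 7556 genes, with adjusted p-values between 0.802 and 0.979. That test called 0% of all genes, and its smallest adjusted p was 0.261. Fas3 alone of the 9 had an unadjusted p below 0.05, which makes 11.1% of them beside 5.84% of all tested genes. A second test, voom on recovered reads, called 0 of the 9 as well and put 1 under an unadjusted p of 0.05. The log2 fold changes, no manganese minus 5 ppm on the scale of log2(RPKM + 1), ran from -0.12 to 0.27. Their median was -0.05, beside 0.02 for all tested genes, and 4 were positive and 5 negative. In size alone the median was 0.06, beside 0.12 over all tested genes. Those genes reach down to a mean of 1 RPKM and were not matched to the 9 in level.

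Both mex1 and Fas3 had both no-manganese libraries above both 5 ppm libraries, 22.2% of the 9 beside 21.7% of all tested genes. Myo61F alone had both no-manganese libraries below both 5 ppm libraries, 11.1% beside 15.2% of all tested genes. These shares are near those of all genes. In the other 6 genes the diets overlapped. Across the 9 genes the 95% intervals of the differences reached from 0.738-fold to 1.44-fold. In this fit a change of RPKM + 1 by a factor of 1.5 in either direction therefore lies outside the interval of each gene. Smaller changes lie inside the intervals of some genes and outside those of others, and that of Fas3 ran from 1.01-fold to 1.44-fold. The spread behind these intervals may be technical only. With the trend of fold change with exon length subtracted, as set out further on, the log2 fold change of Fas3 was 0.36 ± 0.11 SE. No interval is given for that value, so the bound does not extend to it.

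**Figure D1:**
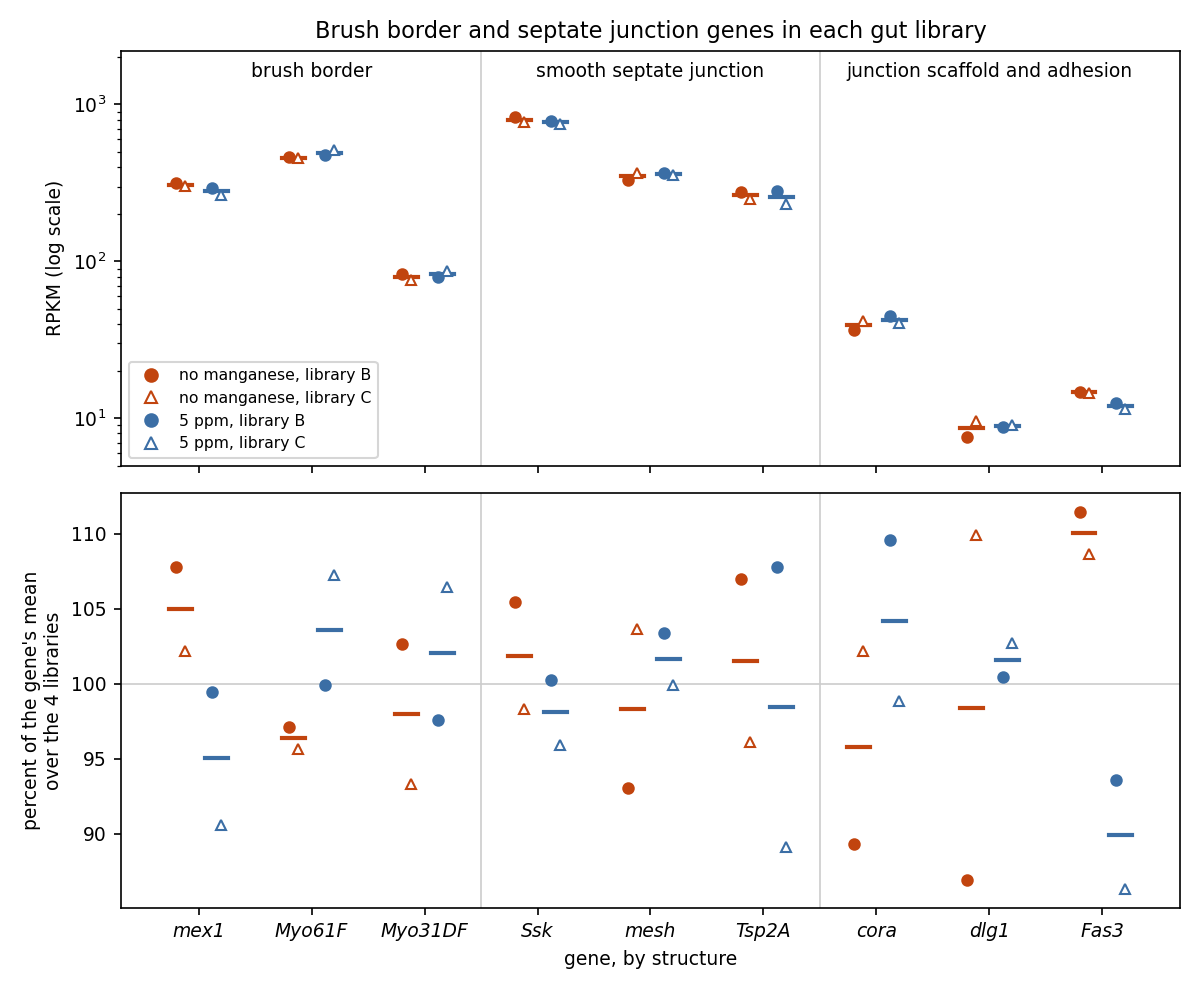
RPKM of the 9 genes in each gut library (upper panel, log axis) and the same values as a percent of the gene's mean over the 4 libraries (lower panel). Orange marks stand for the no-manganese diet and blue marks for 5 ppm, circles for library B, open triangles for library C, and short bars for the mean of a diet; the values lie between 86.3% and 111% of a gene's mean, and only mex1, Myo61F and Fas3 show no overlap between the diets.

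The order of the levels was the same in all 4 libraries. Ssk was highest, with a mean of 784 ± 31.8 RPKM (SD, n = 4 libraries), ahead of Myo61F at 475 ± 24.5, mesh at 354 ± 17.4 and mex1 at 294 ± 21.1. Tsp2A followed at 261 ± 23.4 RPKM, and then Myo31DF at 81.2 ± 4.68, cora at 40.8 ± 3.43, Fas3 at 13.3 ± 1.60 and dlg1 at 8.77 ± 0.843. The ranges of mex1 and Tsp2A overlapped, from 266 to 317 RPKM and from 232 to 281 RPKM, while those of all other neighbours in this order were separate. Ssk lay at rank 147 to 162 among the 13932 genes, depending on the library. In RPKM the brush border and smooth junction genes thus sat above cora, Fas3 and dlg1, which many epithelia use. This order depends on the gene lengths by which reads were divided. The annotation used here gives 11505 exon bases for dlg1 and 1037 for Tsp2A. Approximate read numbers overlapped between cora (5752 to 6824) and Tsp2A (6747 to 7550). Those of dlg1 (2292 to 2919) and Fas3 (2006 to 2558) overlapped as well.

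Among the brush border genes, mex1 encodes a small protein first known for its expression in the midgut. It lies on chromosome 3L from 15517424 to 15519592 (minus strand, dm6) with 1219 exon bases. Its level was 317 and 300.5 RPKM without manganese (libraries B and C), against 293 and 266 RPKM with 5 ppm. Both no-manganese values are above both 5 ppm values, by a margin smaller than the gap between the 5 ppm libraries. The log2 fold change was 0.14 ± 0.12 SE (95% interval -0.17 to 0.46, limma adjusted p = 0.853). Without the no-manganese library C it was 0.18, and with each library left out in turn it ran from 0.077, without the 5 ppm library C, to 0.21.

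Myo61F encodes a class I myosin of the brush border, whose short tail binds membrane. It lies on 3L from 1318480 to 1329617 (plus strand). It had 461 and 454 RPKM in the no-manganese libraries, against 475 and 509 RPKM with 5 ppm. The diets do not overlap, but the no-manganese library B and the 5 ppm library B differ by less than the 2 libraries with 5 ppm do. The log2 fold change was -0.10 ± 0.12 SE (95% interval -0.42 to 0.21, adjusted p = 0.904). With single libraries left out it ran from -0.15 to -0.05.

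Myo31DF encodes the other class I myosin, which is also known for setting the left-right asymmetry of the gut and whose locus gave rise to a widely used enterocyte driver line. It lies on 2L from 10491814 to 10506779 (minus strand), and 11.1% of its exon bases lie under the antisense gene asRNA:CR44224, so that, with no strand setting stated, reads of both genes may be mixed there. It had 83.4 and 75.8 RPKM without manganese, against 79.3 and 86.5 RPKM with 5 ppm. The diets overlap, and the log2 fold change was -0.06 ± 0.11 SE (95% interval -0.36 to 0.24, adjusted p = 0.958). Summed over the 3 brush border genes, the level was 846 ± 21.7 RPKM without manganese and 854 ± 11.2 RPKM with 5 ppm (SD, n = 2 each). The exact permutation test gave a 2-sided p of 0.667, where 2 against 2 libraries cannot go below 0.333. In this sum the higher mean of mex1 without manganese (10.5%) and the lower mean of Myo61F (-7.0%) offset each other.

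Of the smooth septate junction genes, Ssk (Snakeskin) encodes a small protein that spans the membrane several times. It lies on 3L from 20188522 to 20189779 (plus strand) with 898 exon bases. It had 827 and 771 RPKM in the no-manganese libraries, against 786 and 752 RPKM with 5 ppm. The no-manganese library C falls between the 5 ppm libraries, and the log2 fold change was 0.05 ± 0.13 SE (95% interval -0.28 to 0.39, adjusted p = 0.968).

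The product of mesh is a large single-pass membrane protein that is needed, with Ssk, to form the junction. The gene lies on 3R from 31178389 to 31195762 (minus strand). Its level was 329 and 367 RPKM without manganese, against 366 and 354 RPKM with 5 ppm. The 2 no-manganese libraries are the lowest and the highest of the 4, so the spread within that diet covers the difference between the diets. The log2 fold change was -0.05 ± 0.12 SE (95% interval -0.37 to 0.27, adjusted p = 0.969).

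Tsp2A encodes a tetraspanin, and its loss is known to let stem cells of the midgut divide more. It lies on X from 1346553 to 1348143 (plus strand). It had 279 and 250.5 RPKM without manganese, against 281 and 232 RPKM with 5 ppm. In both diets library B is the higher one, and the gap between libraries B and C with 5 ppm, 0.27 on the log2 scale, is larger than the difference between the diets. The log2 fold change was 0.05 ± 0.15 SE (95% interval -0.34 to 0.44, adjusted p = 0.979).

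The fourth known component of this junction, hoka, a small membrane protein, was not among the 9. It had 365 and 324 RPKM without manganese, against 348 and 336 RPKM with 5 ppm (log2 fold change 0.01 ± 0.12 SE, 95% interval -0.32 to 0.34, adjusted p = 0.995). In RPKM its level is close to that of mesh. Summed over Ssk, mesh and Tsp2A, the level was 1412 ± 33.2 RPKM without manganese and 1386 ± 67.2 RPKM with 5 ppm (SD, n = 2 each; exact permutation test, 2-sided p = 0.667).

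The cytoplasmic and adhesive members are shared by pleated and smooth septate junctions. The band 4.1-family protein Coracle, encoded by cora, ties junction proteins to the cell cortex. Its gene lies on 2R from 19229063 to 19243751 (plus strand). It had 36.4 and 41.7 RPKM without manganese, against 44.7 and 40.3 RPKM with 5 ppm. The no-manganese library B is lowest and library C of that diet lies between the 5 ppm values (log2 fold change -0.12 ± 0.12 SE, 95% interval -0.44 to 0.20, adjusted p = 0.883). With single libraries left out the value ran from -0.21 to -0.026.

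The scaffold Discs large, encoded by dlg1, acts with Scribble and Lethal giant larvae in cell polarity. The gene lies on X from 11369665 to 11409776 (plus strand), with 11505 exon bases and 21 annotated transcripts. It had 7.63 and 9.64 RPKM without manganese, against 8.81 and 9.01 RPKM with 5 ppm. Both 5 ppm values lie within the span of the no-manganese ones (log2 fold change -0.05 ± 0.14 SE, 95% interval -0.41 to 0.31, adjusted p = 0.976).

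Its partners gave wider differences, in opposite directions and without a call. The polarity scaffold gene scrib had 24.2 and 31.6 RPKM without manganese, against 38.5 and 40.0 RPKM with 5 ppm (log2 fold change -0.49 ± 0.15 SE, limma unadjusted p = 0.0275, adjusted p = 0.802). It is a long gene of 17197 exon bases. With the trend of fold change with exon length subtracted, as set out further on, the value was -0.24 (limma unadjusted p = 0.0802). Without the no-manganese library C, and with no such subtraction, the log2 fold change of scrib was -0.67. The gene l(2)gl had 109 and 111 RPKM without manganese, against 80.4 and 99.0 RPKM with 5 ppm (0.30 ± 0.14 SE, adjusted p = 0.802). With the same trend subtracted its value was 0.37 (limma unadjusted p = 0.0497, adjusted p = 0.941). In both genes the diets do not overlap, while in dlg1 they do.

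Fas3 encodes Fasciclin 3, an immunoglobulin-family protein by which like cells adhere. The gene lies on 2L from 18320102 to 18393441 (plus strand), with 6612 exon bases, and CG34171 and Acp36DE lie within its span without sharing exon bases. It had 14.8 and 14.4 RPKM without manganese (libraries B and C), against 12.4 and 11.5 RPKM with 5 ppm. The diets are apart, and the difference is 2.52 times the larger of the gaps within a diet. The means were 14.6 ± 0.266 RPKM without manganese and 12.0 ± 0.682 RPKM with 5 ppm (SD, n = 2 each), and the log2 fold change was 0.27 ± 0.10 SE (95% interval 0.02 to 0.53). The limma unadjusted p was 0.0413 and the adjusted p 0.802, so Fas3 did not pass. Without the no-manganese library C the log2 fold change was 0.29 (limma unadjusted p = 0.107), and over all alternatives it ran from 0.21 to 0.36 (adjusted p from 0.399 to 0.982). The unadjusted p stayed under 0.05 in 8 of those 17 alternatives and did not in the other 9, which include 3 other scalings and each of the 4 libraries left out, with a highest value of 0.192. A larger difference in size was found in 16.4% of all tested genes. Summed over cora, dlg1 and Fas3, the level was 62.3 ± 4.87 RPKM without manganese and 63.4 ± 3.64 RPKM with 5 ppm (SD, n = 2 each). The exact permutation test gave a 2-sided p of 0.667. In this sum the lower mean of cora without manganese (-8.1%) offset the higher mean of Fas3 (22.3%).

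**Figure D2:**
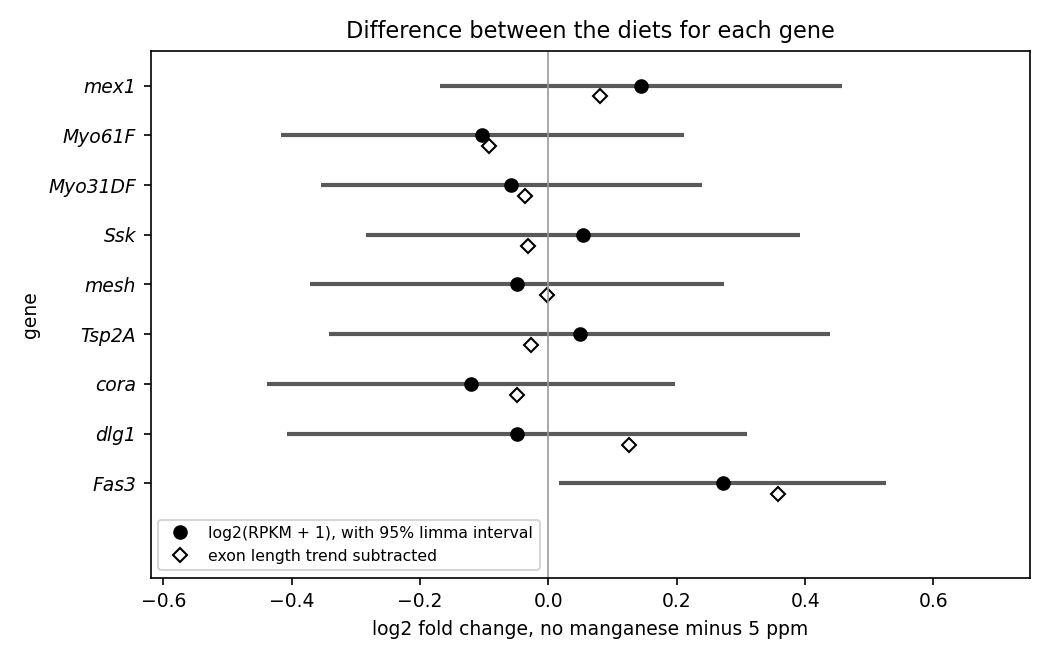
Log2 fold change of each of the 9 genes, no manganese minus 5 ppm, with its 95% limma interval (filled circles and lines), and the value after the trend with exon length was subtracted (open diamonds). The interval of Fas3 lies from 0.02 to 0.53 and those of the other 8 genes span 0; no gene passed the adjusted test.

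Ratios within a library do not depend on how libraries are scaled, so the proportions of the genes were compared as well. Ssk stood at 2.51 and 2.10 times mesh without manganese, against 2.15 and 2.13 times with 5 ppm. Relative to Tsp2A it stood at 2.97 and 3.08 times without manganese, against 2.80 and 3.24 times with 5 ppm. The proportions of the transcripts of these 3 junction genes therefore overlapped between the diets. Myo61F stood at 5.53 and 5.99 times Myo31DF without manganese, against 5.99 and 5.89 times with 5 ppm, again with overlap. Of the 14 ratios computed, only those among Ssk, mesh and Tsp2A, that of Myo61F to Myo31DF and that of cora to dlg1 overlapped. All others were without overlap. Every computed pair outside Ssk, mesh and Tsp2A holds mex1, Myo61F, Fas3 or cora, so their recurrence follows from the choice of pairs. The share of ratios without overlap over all gene pairs was not computed, so there is none to set beside these. The ratios without overlap include that of cora to mesh, although the diets overlapped in each of these genes alone. Genes of a pair can differ in length, and the ratios were not corrected for the length trend set out below. The ratio of mex1 to Myo61F was 0.687 and 0.661 without manganese, against 0.616 and 0.523 with 5 ppm. That of Fas3 to dlg1 was 1.94 and 1.50 without manganese, against 1.41 and 1.27 with 5 ppm. That of Fas3 to cora was 0.406 and 0.346 without manganese, against 0.278 and 0.285 with 5 ppm. The exact permutation test gave p = 0.333 (2-sided) for each of these 3 ratios, the smallest that 2 against 2 libraries allow.

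**Figure D3:**
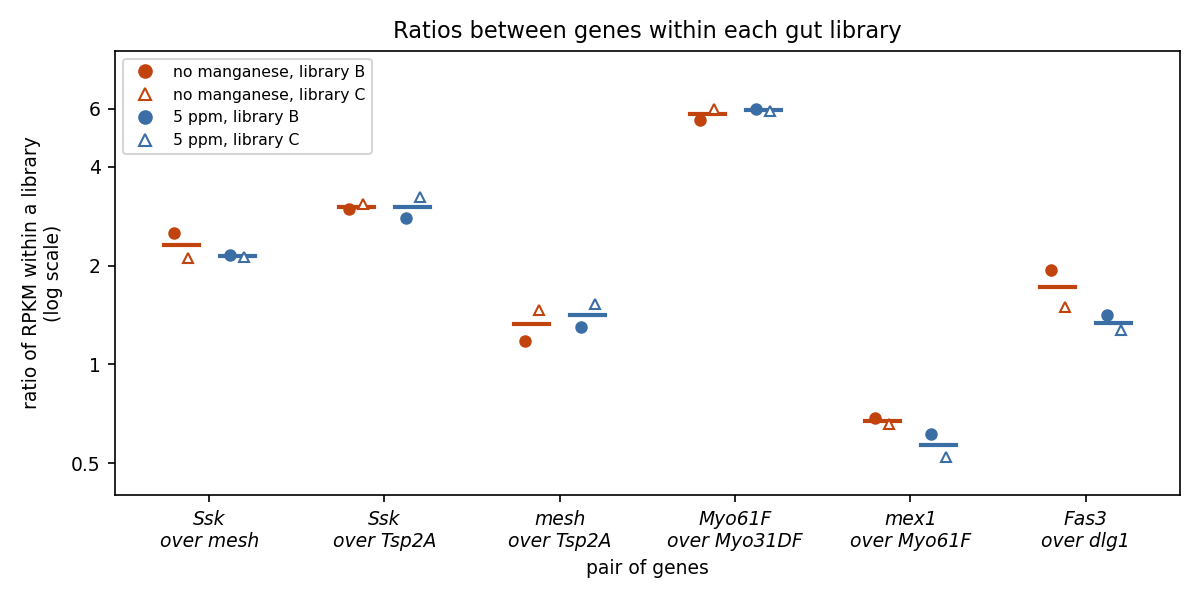
Ratio of the RPKM of one gene to that of another within each library (log axis), for 6 of the 14 pairs computed; orange marks are no-manganese libraries, blue marks 5 ppm libraries, circles library B, open triangles library C and bars the mean of a diet. The ratios among Ssk, mesh and Tsp2A overlap between the diets, and those of mex1 to Myo61F and of Fas3 to dlg1 do not.

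Fold changes ran with exon bases per gene, merged over all annotated transcripts, across the tested genes. Exon bases were known for 7506 tested genes, and Spearman's rho between exon bases and log2 fold change was -0.27 (across genes, which are not independent replicates). With the genes cut into 5 classes of nearly equal size, the median log2 fold change was 0.09 in the shortest class (up to 1124 bases), 0.06, 0.03 and 0.02 in the next ones, and -0.06 in the longest (from 3970 bases). Ssk and Tsp2A, at 0.05 each, belong to the shortest class, mex1 to the next and Myo61F to the class before the longest. Myo31DF, mesh, cora, dlg1 and Fas3 belong to the longest class. The small positive values of the first pair and the small negative values of Myo31DF, mesh and dlg1 are thus near the median of their class, whereas Fas3 lies on the other side. With the trend subtracted in each library, Fas3 had a log2 fold change of 0.36 ± 0.11 SE (unadjusted p = 0.0240, adjusted p = 0.941) and mex1 one of 0.08. Under that correction Ssk and Tsp2A were at -0.03 each and dlg1 at 0.13. Smaller in size than before were also cora at -0.05, Myo31DF at -0.04 and mesh at -0.0023, while Myo61F stayed near its value at -0.09.

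**Figure D4:**
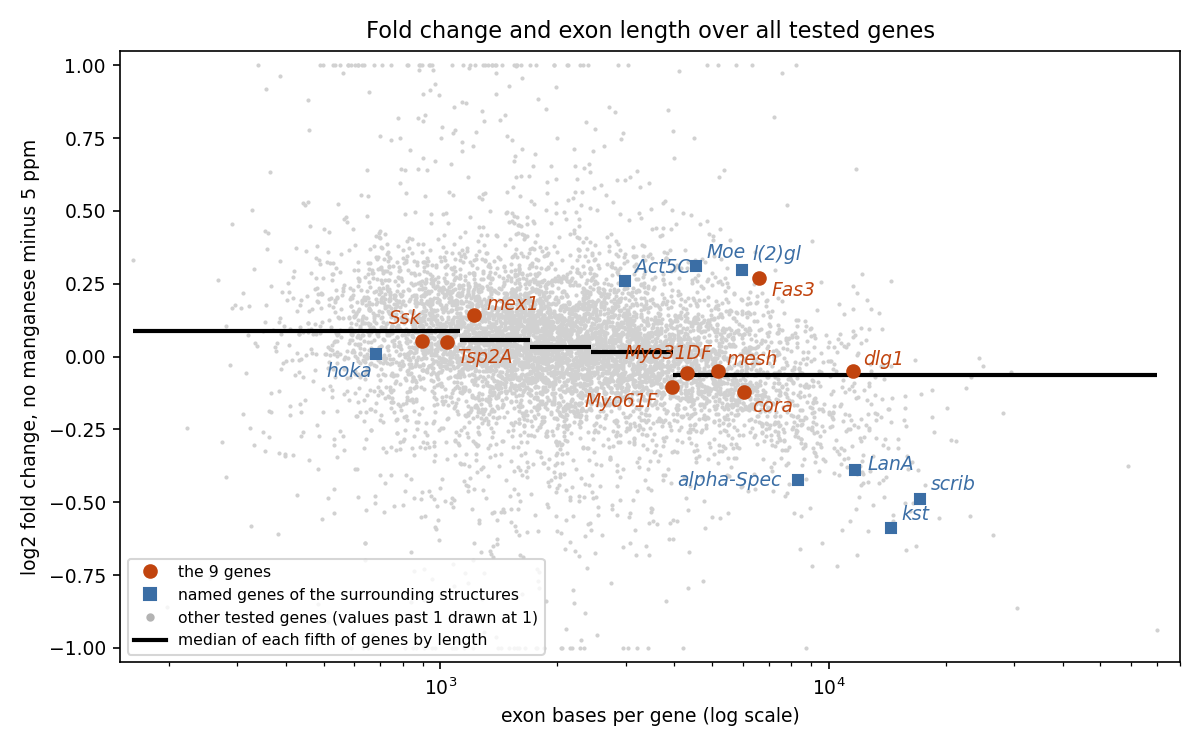
Log2 fold change, no manganese minus 5 ppm, against exon bases (log axis) for all tested genes with a gene model (grey; values past 1 in size drawn at the edge), with the median of each length class as a black line. The 9 genes are orange and named genes of neighbouring structures blue; Fas3, Moe and l(2)gl stand above 0 although they belong to the longest class, where the median is -0.06, and kst, scrib and alpha-Spec stand well below it.

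The structures around these 9 genes were described by 4 further lists of 73 tested genes, of which 0 passed the limma test and 6 had an unadjusted p under 0.05 (8.22%, beside 5.84% of all tested genes). Among other members of septate junctions, 27 were tested, 17 with a positive and 10 with a negative log2 fold change, and the median was 0.05. Nrx-IV, the neurexin of pleated junctions, had 5.49 and 5.99 RPKM without manganese, against 5.73 and 5.77 RPKM with 5 ppm (log2 fold change -0.0038 ± 0.10 SE). Atpalpha, the sodium pump subunit that also builds junctions, had 124 and 138 RPKM without manganese, against 123 and 131 RPKM with 5 ppm (0.05 ± 0.11 SE). Besides scrib and l(2)gl, the smallest p in this list belonged to M6, at 0.22 ± 0.14 SE, and at 0.34 without the no-manganese library C. In every library Nrx-IV stood far below Ssk, mesh, Tsp2A and hoka.

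Genes of the microvillar core and of the terminal web beneath it, the meshwork of spectrin and actin, held the widest difference near the 9, that of kst. With the length trend subtracted, kst at -0.37 and the septate junction gene l(2)gl at 0.37 were close in size. Of 16 tested, 10 had a positive and 6 a negative log2 fold change (median 0.09). In this list 6 had both no-manganese libraries above both 5 ppm libraries (37.5%, beside 21.7% of all tested genes) and 4 had both below (25.0%, beside 15.2%). The list is not alone in this: among the 15 tested genes of basal adhesion, described below, 4 were above and 5 below. Among the 27 other septate junction genes 2 were above and 1 below, and among 15 adherens junction and polarity genes 2 and 2. The apical spectrin kst (beta-heavy spectrin) had 89.9 and 97.0 RPKM without manganese, against 147 and 136 RPKM with 5 ppm (log2 fold change -0.59 ± 0.11 SE, unadjusted p = 0.00398, adjusted p = 0.776). Its partner alpha-Spec had 54.8 and 57.8 RPKM without manganese, against 78.1 and 73.5 RPKM with 5 ppm (-0.42 ± 0.10 SE, unadjusted p = 0.0103, adjusted p = 0.786). The basolateral chain beta-Spec, named after its values were seen, had 68.8 and 76.2 RPKM without manganese, against 91.5 and 88.5 RPKM with 5 ppm (-0.31 ± 0.11 SE, unadjusted p = 0.0381, adjusted p = 0.802). All 3 spectrin chains were thus below the 5 ppm libraries in both no-manganese libraries, and none passed. These are long genes, with 14454, 8347 and 7896 exon bases, and with the length trend subtracted their log2 fold changes were -0.37, -0.30 and -0.20.

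Moe (moesin), which links actin to the apical membrane, had 206 and 197 RPKM without manganese, against 165 and 159 RPKM with 5 ppm (log2 fold change 0.31 ± 0.11 SE, unadjusted p = 0.0358, adjusted p = 0.802). Its 4558 exon bases put it in the longest class too, and with the length trend subtracted the value was 0.34. Act5C, a cytoplasmic actin, had 2400.2 and 2279.9 RPKM without manganese, against 2206 and 1734 RPKM with 5 ppm (0.26 ± 0.18 SE, adjusted p = 0.833). The diets are apart for both genes, though for Act5C the gap within the 5 ppm diet is larger than the difference.

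Adherens junction and polarity genes gave 6 positive and 9 negative values among 15 tested, with a median of -0.02, and 0 had an unadjusted p under 0.05. The cadherin gene shg had 14.9 and 12.8 RPKM without manganese, against 15.1 and 13.0 RPKM with 5 ppm (-0.02 ± 0.13 SE), and arm, the beta-catenin, was at -0.04 ± 0.09 SE. The smallest p-values belonged to cno (-0.28 ± 0.13 SE), Rap1 (0.15 ± 0.10 SE) and p120ctn (0.22 ± 0.14 SE), none past the test. With the length trend subtracted cno was at -0.079, and without the no-manganese library C p120ctn was at 0.35. On the basal side, where integrins hold the epithelium to its matrix, 7 of 15 tested genes had a positive value and 8 a negative one (median -0.05). LanA, a laminin chain with 11690 exon bases, had 5.76 and 5.48 RPKM without manganese, against 7.92 and 7.41 RPKM with 5 ppm (-0.39 ± 0.10 SE, unadjusted p = 0.0139, adjusted p = 0.802, and -0.21 with the length trend subtracted). The talin gene rhea was at -0.25 ± 0.10 SE, and at -0.085 with the length trend subtracted. The integrin gene mew was at -0.32 ± 0.14 SE, and at -0.16 without the no-manganese library C.

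Markers of cells that share the gut were set beside these values, in 9 lists, and 0 of their genes passed the test. Enterocyte products gave 6 positive and 4 negative values among 10 tested (median 0.09), with summed levels of 30317 and 25469 RPKM without manganese and 27511 and 23660 RPKM with 5 ppm. An unadjusted limma p under 0.05 was found for 4 of the 61 tested genes in these 9 lists, beside 5.84% of all tested genes. These 4 were named after their values were seen. The digestive protease gene Jon65Aiii had 3511 and 3964 RPKM without manganese, against 2209.8 and 2026 RPKM with 5 ppm (log2 fold change 0.82 ± 0.16 SE, unadjusted p = 0.00534, adjusted p = 0.776). The sterol transport gene Npc1b had 352 and 367 RPKM without manganese, against 585 and 483 RPKM with 5 ppm (-0.56 ± 0.15 SE, unadjusted p = 0.0142, adjusted p = 0.802). The other two were the enteroendocrine peptide genes AstA (-0.53 ± 0.16 SE, unadjusted p = 0.0247) and CCHa1 (-0.34 ± 0.09 SE, unadjusted p = 0.0187). In each of these 4 genes the diets do not overlap, which also holds for 21.7% (higher) and 15.2% (lower) of all tested genes. Progenitor markers summed to 27.3 and 26.7 RPKM without manganese and to 31.6 and 27.4 RPKM with 5 ppm, with 1 of 6 tested genes positive (median -0.14). Enteroendocrine markers summed to 334 and 329 RPKM without manganese and to 374 and 349 RPKM with 5 ppm, with 4 of 10 positive (median -0.05). Visceral muscle markers summed to 1007 and 1065 RPKM without manganese and to 1047 and 1045 RPKM with 5 ppm, with 6 of 13 positive (median -0.03). In the ovary list all 8 tested genes were positive, with a median of 2.71 that rests on the no-manganese library C. These 8 reached the filter's mean of 1 RPKM only through that library, so their positive signs follow from the filter. Without the no-manganese library C 1 was positive and 6 were negative, and 5 of the 12 genes read were at 0 in at least 1 library. Fat body markers summed to 334 and 840.1 RPKM without manganese and to 212 and 491 RPKM with 5 ppm, with 4 of 6 positive (median 0.56). Malpighian tubule markers, with 3 of 5 positive (median 0.10), summed to 97.4 and 92.5 RPKM without manganese and to 104 and 83.2 RPKM with 5 ppm. Trachea and cuticle markers summed to 9.61 to 12.5 RPKM and hemocyte markers to 3.56 to 5.91 RPKM over the 4 libraries, with 2 and 1 genes tested. The part of these cells in the levels of the 9 genes was not tested. With eggshell and muscle genes left out and the libraries rescaled, the log2 fold change of Fas3 was 0.26, that of mex1 0.13 and that of Myo61F -0.11.

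Fas3 had the smallest p of the 9, and the tested genes nearest to it in their profile over the 4 libraries were CG3408, ND-13A, Mmp1, ATPsynCF6 and ATPsynE. The measure was the Euclidean distance between log2(RPKM + 1) values centred on each gene's mean, which was 0.0226 for CG3408 and 0.0361 for ATPsynE. Within a distance of 0.1 lay 139 of 7555 genes, so many tested genes share this profile over 4 libraries. The log2 fold changes of the 5 nearest lay between 0.25 and 0.30.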

How the data were processed

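Gut RNA of 4 libraries, 2 per diet, was sequenced. The authors deposited 1 table of RPKM values; all 4 columns were used, and each was assigned to its diet by name and not to a numbered sample. STAR 2.5.2b, DESeq2 and dm6 appear, with no role stated, in the submitters' processing notes. Annotation, counting program and strand setting are not stated there. Symbols, positions and exon bases came from the Ensembl 115 annotation of BDGP6, whose coordinates are those of dm6 (13852 of 13932 identifiers had a symbol). RPKM depends on library total and on the gene length used, so other RNA in a library lowers all its values slightly.

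Differences were tested on log2(RPKM + 1) in R 4.3.3 with limma 3.58.1, a scale that understates the change of low genes, over all genes with a mean of at least 1 RPKM, with a trend in the prior variance (2.58 prior and 2 residual degrees of freedom), 2-sided, with Benjamini-Hochberg adjustment over all 7556 genes and a threshold of 0.05. Library size was recovered from the steps of RPKM times exon bases: among values under 20 reads, 84.5% to 85.5% lay 0.02 or less from a whole number. Sums and ratios were compared by exact permutation tests.

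The 9 genes and the 13 lists of context genes were chosen with earlier results of these data known; 6 of the 167 list entries were not analysed here. Named are all 9 genes, the 3 genes with the smallest p of each structure list, 7 further genes in every case (hoka, Atpalpha, Nrx-IV, Moe, Act5C, shg and arm), the 5 profiles nearest to the member with the smallest p, and, at choice, the 2 genes with the highest mean of each list for other cells. Outside that rule beta-Spec, Jon65Aiii, Npc1b, AstA and CCHa1 were named after their values were seen. Alternatives were pseudocounts of 0.1 and 5, no filter or at least 5 RPKM, 3 other scalings, subtraction of the length trend, other empirical Bayes settings, the library letter as a block, voom on recovered reads, eggshell and muscle genes left out, and the omission of each library, which leaves 1 in a diet and takes its spread from the other diet.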

Additional observations from a re-analysis of the deposited data

How the results depend on the processing

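Under 17 alternatives none of the 9 genes passed the adjusted test (153 values, smallest adjusted p = 0.399 for Fas3 with the letter block), and 144 values kept their sign. Fas3, mex1, Myo61F and cora kept theirs under all 17. With the length trend subtracted, Ssk was at -0.033, Tsp2A at -0.027 and dlg1 at 0.13, and the summed log2 ratios were -0.025 for the smooth junction and 0.067 for the scaffold and adhesion genes. With 1 library left out, log2 fold changes ran from -0.13 to 0.0098 for Myo31DF, -0.13 to 0.028 for mesh, -0.088 to 0.19 for Tsp2A and -0.20 to 0.10 for dlg1. The summed log2 ratios then ran from -0.041 to 0.012 for the brush border, -0.022 to 0.077 for the smooth junction and -0.11 to 0.054 for the scaffold and adhesion genes. Genes without overlap, 2 higher and 1 lower, became 1 higher with trimmed mean scaling and 0 lower with the length trend subtracted. Under that subtraction the 2 higher ones were dlg1 and Fas3, while mex1 and Myo61F overlapped. Quantile normalization gave mex1, Ssk and Fas3 as higher and cora as lower. The same genes were higher with voom and with eggshell and muscle genes left out, and Myo61F was lower. With 1 library left out, where fewer values are compared, 2 to 4 were higher and 2 to 4 lower. Over all genes 20 were called higher with no filter, and 0 to 10 higher and 0 to 1 lower with 1 library left out (10 and 1 without the no-manganese library B, 5 and 0 without library C of that diet). Of 663 recounts of the context lists, 59 moved by over 1.5 times. The letters B and C are not said to pair the libraries; deviations of same-letter libraries correlated at 0.34 across genes. With the letters as a replicate block, Fas3 had an adjusted p of 0.399 and 878 genes an unadjusted p under 0.05, against 441 without it, and 0 were called. The cause of these reversals was not tested.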
